A study of Mus musculus with 4 samples.

Results

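The costimulation ligands and receptors described here are 10 genes, Cd80, Cd86, Cd28, Ctla4, Cd40, Cd40lg, Icos, Icosl, Tnfrsf9 and Tnfsf9. They were taken by symbol from the 30905 genes of a single-cell RNA sequencing study of mouse heart transplants, and each symbol matched 1 gene. Hearts of Balb/C mice (allogeneic grafts, 2 samples) or of C57BL/6J mice (syngeneic grafts, 2 samples) were placed in the abdomen of C57BL/6J recipients, and the whole grafts were dissociated on day 5 after transplantation. All animals were male, and graft and infiltrating recipient cells lay in the same suspension. The cells of the 4 samples were deposited as 1 merged matrix of 53824 cells, in which each cell carries a barcode suffix from 1 to 4. The suffixes are called libraries 1 to 4 here. No label pairs a suffix with a graft, so allogeneic and syngeneic grafts were not compared, the matrix counts as 1 sample, and no p-value is given.

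A T cell that meets its antigen needs a further signal from the presenting cell. CD80 and CD86, the B7 proteins of dendritic cells, macrophages and B cells, bind CD28 on T cells, which sustains activation, or CTLA-4, which takes the same ligands with higher affinity and restrains it. ICOS, a CD28 relative of activated T cells, binds ICOS ligand (Icosl). CD40 ligand (Cd40lg), mainly from helper T cells, engages CD40 on dendritic cells, macrophages, B cells and endothelium. 4-1BB (Tnfrsf9) of recently activated T and NK cells binds 4-1BB ligand (Tnfsf9). Blockade of the CD28 and CD40 pathways prolongs the survival of experimental heart transplants.

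The 3 receptors of the CD28 family that are members share a run of 3 proline codons in the loop by which CD28 and CTLA-4 bind B7. It is shown because the RNA levels of these genes were closely correlated across all cell groups, and CD28 and CTLA-4 compete for the same ligands. All 3 genes lie on the plus strand of chromosome 1 (GRCm38, GENCODE M21), with 114 kb between Cd28 and Ctla4 and 62 kb between Ctla4 and Icos. The stretches are coding sequence of exon 2, at chr1:60763254-60763313 for Cd28, chr1:60912692-60912751 for Ctla4 and chr1:60993962-60994021 for Icos. Capitals mark 18 bases, which hold the 3 proline codons and their neighbours.
Cd28: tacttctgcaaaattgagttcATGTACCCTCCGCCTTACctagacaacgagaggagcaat
Ctla4: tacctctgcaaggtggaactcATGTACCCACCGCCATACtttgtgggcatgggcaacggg
Icos: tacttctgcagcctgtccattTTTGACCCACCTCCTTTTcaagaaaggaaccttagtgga
Within the capitals, Cd28 and Ctla4 differ at 2 of 18 bases, and Icos differs from each of them at 7. The other T cell-side members are Cd40lg (X:57212143-57224042, plus strand) and Tnfrsf9 (4:150914562-150946102, plus strand). On the presenting side, Cd80 (16:38455561-38496335, plus strand) and Cd86 (16:36603869-36666081, minus strand) share a chromosome. Cd40 lies at 2:165055627-165072948, Icosl at 10:78069302-78083913 and Tnfsf9 at 17:57105325-57107757, each on the plus strand. An exon of Gm11110 lies antisense to Tnfsf9 and drew 875 unique molecular identifiers (UMIs, counted RNA molecules) in the kept cells, against 28056 for Tnfsf9.

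After removal of cells with few genes, of cells with a high mitochondrial share and of predicted doublets, 42395 cells were kept. The libraries held 13112 to 13907 deposited cells and 96020294 to 166079145 UMIs, with median UMIs per cell from 4759 (library 2) to 9784 (library 4). They differed in makeup, since T/NK-like cells were 0.836%, 0.0400%, 0.598% and 12.0% of the kept cells of libraries 1 to 4, and 32 of 63 final cell groups drew over 90% of their cells from 1 library. Such a group may reflect its library rather than a type. Of 53516 distinct barcode sequences, 308 occurred in more than 1 library. Groups were named from lists of marker genes, none of them a member, and each name stands for a marker-defined, "-like" group. The markers held for the 11 classes named here, and 7603 kept cells stayed unnamed.

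Levels are given as CPM, the UMIs of a gene per 1000000 UMIs of a cell group, with a 95% exact Poisson interval in parentheses. Ratios of CPM carry an exact conditional binomial interval. All intervals cover counting error only and say nothing of the spread between grafts. CPM of a 3' library can be compared between cell groups for 1 gene, not between genes. All 10 genes were detected in the kept cells, from 205 UMIs for Cd40lg to 29997 for Cd86, and Cd40lg was seen in 0.2996% of the cells against 23.0% for Tnfsf9. Library 4 gave 96.0% of the Ctla4, 90.7% of the Icos, 88.5% of the Tnfrsf9, 86.7% of the Cd28, 83.6% of the Cd40, 74.1% of the Cd40lg and 71.1% of the Cd86 UMIs. It gave 44.9% of the Cd80, 18.2% of the Tnfsf9 and 16.8% of the Icosl UMIs, so that the latter pair of ligands came mostly from the other libraries.

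Most members were highest in a class known for their role. All 5 T cell-side genes were highest in T/NK-like cells, and 4 of 5 presenting-side genes were highest in a myeloid class. For Cd80 and Icosl that class was granulocytes, not dendritic cells, macrophages or B cells. The exception, Tnfsf9, was highest in pericytes over all libraries. The share of all genes that were highest in these classes is not given, so the counts are descriptions. Cd28 stood at 268 CPM (261 to 275) in T/NK-like cells and at 2.76 CPM in the next class, cardiomyocytes. Ctla4 stood at 337 CPM (329 to 344) against 11.3 in dendritic cells, a ratio of 29.9 (23.4 to 38.8). Icos stood at 285 CPM (278 to 292) against 4.34 in B cells. These differences were far wider than their intervals. Cd40lg gave few UMIs even there, at 5.98 CPM (5.02 to 7.07) against 0.200 in granulocytes, and 6 of 11 classes held no Cd40lg UMI. Tnfrsf9 was the least confined of the 5, with 379 CPM (371 to 387) in T/NK-like cells, 25.4 in dendritic cells and 19.5 in smooth muscle cells. Its ratio of the first to the second class was 14.9 (12.7 to 17.7). Below the T/NK-like class, no neighbouring classes differed beyond their intervals for Cd28.

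**Figure D1:**
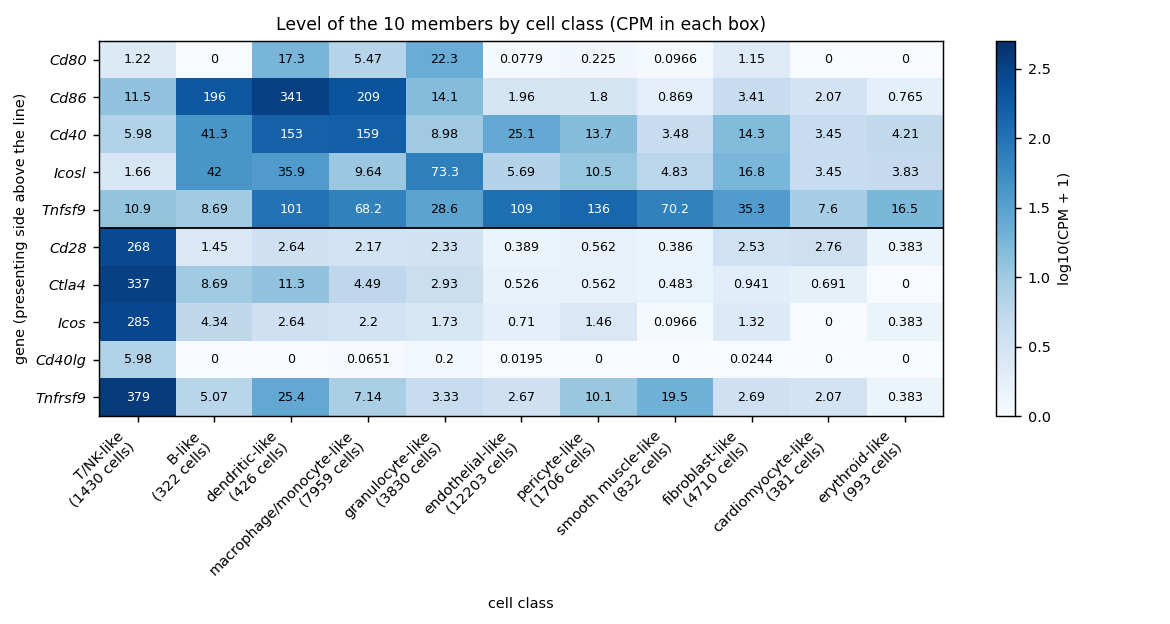
Level of each of the 10 genes (rows) in the 11 named cell classes (columns). The number in each box is the CPM over all kept cells of the class, and the colour is log10 of CPM + 1. Each T cell-side row is darkest in the T/NK-like column, with 268 CPM for Cd28 and 337 CPM for Ctla4 but only 5.98 CPM for Cd40lg. Tnfrsf9 also reaches 25.4 CPM in dendritic cells. Tnfsf9 is spread from pericytes (136 CPM) over endothelial (109 CPM) and dendritic cells (101 CPM).

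On the presenting side, Cd86 ran from 341 CPM (326 to 357) in dendritic cells to 209 in macrophages/monocytes and 196 in B cells, and the latter pair were not apart by the interval of their ratio. Cd80, which binds the same receptors, had another order, with 22.3 CPM (19.96 to 24.8) in granulocytes, 17.3 in dendritic cells and 5.47 in macrophages/monocytes. The ratio of the first to the second was 1.29 (1.03 to 1.63), and B cells held 0 Cd80 UMIs in 322 cells, which allows up to 2.17 CPM. Cd40 was shared by macrophages/monocytes (159 CPM, 157 to 162) and dendritic cells (153 CPM), which were not apart (ratio 1.04, 0.975 to 1.12). It reached 41.3 CPM in B cells and 25.1 CPM in endothelial cells. Icosl was highest in granulocytes (73.3 CPM, 69.0 to 77.7), 1.74 times (1.34 to 2.31) the 42.0 CPM of B cells, and dendritic cells at 35.9 CPM were not apart from B cells. Without library 2, and in library 4 alone, the highest class was B cells, while granulocytes stood at 38.1 and 26.03 CPM. B cells of library 4 were at 31.5 CPM. Tnfsf9 stood at 136 CPM (131 to 142) in pericytes, 1.25 times (1.20 to 1.31) its level in endothelial cells. Its highest class was dendritic cells without library 4, with equal weight of libraries and after thinning, and macrophages/monocytes in library 4 alone. Pericytes stood at 141 CPM without library 4 and at 114 CPM with equal weight of libraries.

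Between macrophages/monocytes and T/NK-like cells, shares of cells kept their direction for Cd86, Cd40 and Ctla4 where depth was held equal. Cd86 was seen in 85.7% of macrophages/monocytes (median 14558 UMIs) and in 15.035% of T/NK-like cells (median 11341 UMIs), which are not its main known source. With each cell thinned to 1000 UMIs the shares were 20.1% and 1.68%, with 8 and 1 cells left out as too shallow. Cd40 was seen in 62.9% of macrophages/monocytes and 8.81% of T/NK-like cells, or 14.0% and 0.700% after thinning. Ctla4 went from 65.5% to 22.1% in T/NK-like cells and from 6.22% to 0.616% in macrophages/monocytes. The share in the class that is not a main known source of the gene is given for comparison, and its origin was not tested. In library 4, Cd86 gave 5.47 UMIs per 100 UMIs of the macrophage gene Lyz2 in T/NK-like cells and 2.45 in macrophages/monocytes. For Cd40 the figures were 2.91 and 2.44. For Cd80 the thinned shares, 2.60% in dendritic cells, 2.23% in granulocytes and 0.729% in macrophages/monocytes, put dendritic cells first, unlike the CPM, so no order of dendritic cells and granulocytes is read from them.

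Across 62 cell groups of at least 50 cells, the levels of the 3 CD28-family receptors were closely correlated. Most of these groups are not of T or NK cells, and among the T/NK subclusters the balance of the 3 genes differed, as given below. Pearson's r of log2(CPM + 1) was 0.963 for Ctla4 and Icos, 0.927 for Cd28 and Icos and 0.919 for Cd28 and Ctla4. Among 13069 genes with at least 500 UMIs, Icos was the gene most like Ctla4, followed by Trbc1 and Cd3g (0.963 each), and Icos was most like Cd3g (0.969), Zap70 (0.965) and Ctla4. The genes most like Cd28 were Zap70 (0.944), Skap1 (0.940) and Gm19585 (0.937), of which Zap70 and Skap1 act in T cell receptor signalling. Cd40lg stood nearest to Sit1 (0.869), Cxcr6 (0.857) and Lta (0.832), and Tnfrsf9 to the cytotoxic genes Gzmb (0.872) and Prf1 (0.853) and to Ifng (0.853). Between ligands and their receptors, r was -0.279 for Cd40 and Cd40lg, -0.405 for Icosl and Icos and -0.362 for Tnfsf9 and Tnfrsf9. For the B7 pairs it was 0.258 for Cd86 and Ctla4, 0.170 for Cd86 and Cd28, 0.0494 for Cd80 and Ctla4 and -0.00437 for Cd80 and Cd28. Cell groups share libraries and depth, and these correlations are descriptions.

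The presenting-side genes each had another set of most similar genes. Cd86 was nearest to the myeloid genes Ms4a6c (0.950), Ctss (0.950) and Tnip3 (0.939), and Cd80 to Lilra6 (0.840), Mapk13 (0.833) and Mcemp1 (0.829). Cd40 was nearest to Il18bp (0.821), Dnase1l3 (0.805) and Cfb (0.787). Icosl had no close match, with Nt5c2 (0.744), Plekhm2 (0.661) and Antxr2 (0.641) at the top. Tnfsf9 was most like Sowahc (0.738), Cdkn1a (0.736) and Zfp36 (0.730), the last an immediate early gene that destabilises cytokine mRNA. Cd80 and Cd86, which bind the same receptors, had an r of 0.660.

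The T/NK-like clusters were divided again into 12 subclusters with 1854 cells, of which 1430 could be named. Library 2 gave 5 named T/NK-like cells and has no level of its own. In libraries 1, 3 and 4, Cd28 stood at 174, 93.7 and 276 CPM over the whole class, Ctla4 at 89.0, 93.7 and 352 CPM, and Icos at 126, 200 and 292 CPM. Tnfrsf9 stood at 330, 216 and 384 CPM, and Cd40lg at 4.81, 4.08 and 6.08 CPM. Among these named cells, all 5 were highest in library 4. Cells of an unnamed Hbb-bt-led T/NK subcluster held Cd28 at 439 and 413 CPM and Cd40lg at 53.9 and 50.3 CPM in libraries 1 and 3, above the named class of library 4. The class is a mixture that differs between libraries, as the subclusters show.

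Regulatory T-like cells, named by Foxp3, Il2ra, Ikzf2, Cd4 and Cd3e (188 cells, 179 of them from library 4), held the highest Ctla4, Icos and Cd28 of the named subclusters. A Foxp3 UMI was seen in 58 of the 188 cells. No subcluster took a CD4 T name, so other Cd4 T cells may be among the 188. Ctla4, which regulatory T cells use to strip B7 from presenting cells, was at 1033 CPM (984 to 1083), Icos at 1089.9 CPM (1039.7 to 1142) and Cd28 at 614 CPM (577 to 654). Set against all other cells of the T/NK-like clusters (1666 cells), Icos was 4.95 times as high (4.68 to 5.22), Ctla4 3.83 times (3.62 to 4.04), Cd28 2.52 times (2.36 to 2.698) and Tnfrsf9 1.71 times (1.597 to 1.83). Cd40lg was 4.92 times as high (3.47 to 6.87). Of the 10 members tested, 6 were at least 2-fold higher, where 9.11% of all genes with 20 or more UMIs were. The others of the 6 were Tnfsf9 (24.0 against 11.3 CPM) and Cd80, which rested on 7 against 22 UMIs. Icosl, with 1 against 52 UMIs, was the only member at least 2-fold lower (ratio 0.280, 0.00696 to 1.63), where 15.6% of all genes were.

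Within library 4, the 179 regulatory T-like cells were set against 793 CD8 T-like cells. The receptors kept their order, with Icos at 1084 against 256 CPM (4.24 times, 4.003 to 4.48), Ctla4 at 1032 against 331 CPM (3.11 times, 2.94 to 3.29) and Cd28 at 621 against 278 CPM (2.23 times, 2.08 to 2.39). Cd40lg was at 30.6 against 4.98 CPM (6.13 times, 4.202 to 8.86), and the CD8 T-like subclusters also held some Cd4 RNA. Tnfrsf9, at 572 against 408 CPM, was 1.40 times as high (1.30 to 1.502) and under 2-fold. Here 7 of 10 members were at least 2-fold higher and 0 lower, beside 14.5% and 13.7% of all genes. The T cell-side genes among the 7 were Icos, Ctla4, Cd28 and Cd40lg. The others were the presenting-side genes Cd80 (7 against 21 UMIs), Cd40 (20 against 87) and Tnfsf9 (39 against 174), and the source of their RNA was not tested. Of 42 other costimulation genes (the PD-1 and B7 relatives, the TNF superfamily pairs, the CD2 and SLAM receptors and their signal proteins), 36 were tested, 13 were higher and 2 lower, with a median log2 ratio of 0.62 against 0.14 over all genes. The higher ones included Tnfrsf4 (OX40, 1487 against 282 CPM), Tnfrsf18 (GITR, 885 against 206 CPM), Cd2 (1134 against 451 CPM) and Btla (35.7 against 13.2 CPM). Tnfsf14 and Cd244 were the lower ones. Against all other T/NK-like cells, 12 of 38 tested list genes were higher and 2 lower, with a median log2 ratio of 0.66 against 0.05 over all genes.

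**Figure D2:**
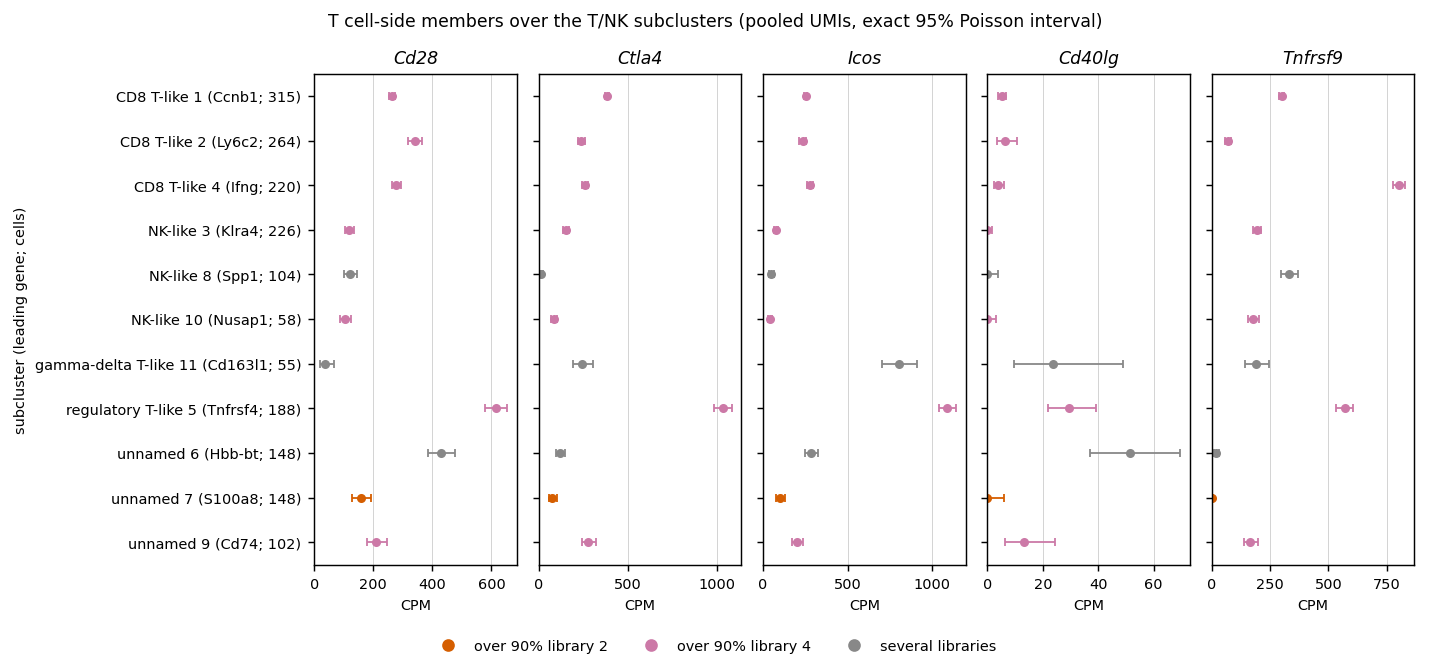
Level of the 5 T cell-side genes in the 11 T and NK subclusters of at least 50 cells, named by their leading gene, as CPM with the 95% exact Poisson interval. Colours mark subclusters with over 90% of cells from library 2 or 4. Ctla4 and Icos peak in the regulatory T-like subcluster (1033 and 1089.9 CPM), Tnfrsf9 in the Ifng-led CD8 T-like one (801 CPM) and Cd40lg in the unnamed Hbb-bt-led one (51.5 CPM).

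Foxp3 itself, the factor that defines regulatory T cells, gave a second way to find them. T/NK-like cells with a Foxp3 UMI (90 cells) held Ctla4 at 1264 CPM against 277 CPM in the 1764 without one, 4.57 times as much (4.31 to 4.84). Icos was 3.05 times and Tnfrsf9 2.89 times as high with Foxp3, while Cd40lg was at 0.923 against 7.79 CPM (0.118 times, 0.00298 to 0.668). Cd40lg thus went the other way from the subcluster as a whole. Inside the regulatory T-like subcluster, the 58 cells with a Foxp3 UMI held Ctla4 at 1643 against 768 CPM (2.14 times, 1.94 to 2.36) and Tnfrsf9 at 1363 against 225 CPM (6.06 times, 5.24 to 7.03). Icos, at 1144 against 1066 CPM, and Cd28, at 562 against 637 CPM, were not apart beyond their intervals. Cd40lg had 0 UMIs in these 58 cells and 48 UMIs, 42.3 CPM, in the 130 cells without a Foxp3 UMI. A cell without a Foxp3 UMI may still carry the transcript, and this split was made after the levels had been seen.

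Cells were also split by coreceptor, a choice made after the levels had been seen. T cells with a Cd4 UMI and none of Foxp3, Cd8a or Cd8b1 (248 cells) were set against those with Cd8a or Cd8b1 and without Cd4 and Foxp3 (729 cells). Cd40lg, the helper ligand, was at 40.8 against 1.11 CPM, 36.8 times as high (21.5 to 67.9). It was 42.0 times as high in library 4 and 12.6 times (3.68 to 66.7) in libraries 1 to 3. Icos was 3.07 times (2.90 to 3.26), Ctla4 2.45 times and Cd28 1.90 times as high in the Cd4 cells. The same genes were higher in the regulatory T-like subcluster, and the part of other Cd4 T cells in those ratios was not tested. Tnfrsf9 differed between the libraries in direction. In library 4 it was lower in the Cd4 cells, at 222 against 453 CPM (0.489 times), and in libraries 1 to 3 it was higher, at 43.2 against 8.24 CPM (5.25 times, 1.92 to 16.5), with 61 and 125 cells. No test of that difference was possible with 1 pooled sample.

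Among CD8 T-like cells, Tnfrsf9 differed more than 2-fold between the Ifng-led and Ly6c2-led subclusters, and the CD28-family genes by less. The Ifng-led subcluster (220 cells), rich in the cytokine and chemokine genes Ifng, Ccl3, Xcl1 and Ccl4, held Tnfrsf9 at 801 CPM. The Ly6c2-led subcluster (263 cells of library 4) held it at 68.6 CPM, so the ratio was 11.7 (9.93 to 13.8). Cd28 was at 278 against 341 CPM (0.815 times, 0.744 to 0.893), Ctla4 at 260 against 241 CPM (1.08 times, 0.973 to 1.20) and Icos at 278 against 230 CPM (1.21 times, 1.09 to 1.34). Tnfrsf9 was the only one of 8 members tested that was at least 2-fold higher, none was lower, and 15.5% and 16.8% of all genes were higher and lower. Of 34 other costimulation genes tested, 3 were higher (Tnfrsf4, Pdcd1lg2 and Tnfsf14) and 8 lower, among them Cd96 (7.53 against 50.7 CPM), Lck (172 against 418 CPM) and Pik3cd (38.8 against 114 CPM). The list's median log2 ratio was -0.18, that of all genes -0.03. The median depth of the 2 subclusters was 19438.5 and 7041.5 UMIs. The cycling Ccnb1-led CD8 T-like subcluster (315 cells) lay between them for Tnfrsf9 at 301 CPM (290 to 312), with Ctla4 at 385 CPM (372 to 397). This cycling subcluster also held Foxp3 at 14.8 CPM and Cd4 at 47.8 CPM, against 0.222 and 14.8 CPM in the Ifng-led one. The part of regulatory and other Cd4 T cells in its values was not tested.

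NK-like cells of library 4 (284 cells) carried less of the T cell-side genes than CD8 T-like cells (793 cells). Icos was at 66.9 against 256 CPM (0.261 times), Ctla4 at 134 against 331 CPM (0.403 times), Cd28 at 114 against 278 CPM (0.411 times) and Tnfrsf9 at 185 against 408 CPM (0.454 times). Cd40lg had 0 UMIs, which allows up to 0.888 CPM, against 82 UMIs in the CD8 T-like cells. The 604 T cells of library 4 with Cd8a or Cd8b1 and without Cd4 and Foxp3 held 12 Cd40lg UMIs. With Cd80, 6 of 10 members were at least 2-fold lower and 1, Icosl on 10 against 20 UMIs, was higher, where 10.1% and 9.76% of all genes were. Of 36 list genes, 3 were higher and 9 lower, with a median log2 ratio of -0.22 against -0.01 over all genes. Cd244, an NK receptor of the SLAM family, was at 99.1 against 6.62 CPM, and Pdcd1 at 24.6 against 225 CPM.

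NK-like cells also differed by library. The Klra4-led subcluster (226 cells, all of library 4) held Ctla4 at 152 CPM, and the Spp1-led one (99 cells of libraries 1 and 3) held it at 5.48 CPM, a ratio of 27.7 (11.8 to 85.9). In the Spp1-led cells Ctla4 was at 6.23 CPM in library 1 and 3.71 CPM in library 3. Cd28 was not apart, at 118 against 124 CPM (0.954 times, 0.762 to 1.20). Tnfrsf9 was at 193 against 340.0 CPM (0.568 times), with 355 CPM in library 1 and 304 CPM in library 3. Ctla4 and Cd40 (19 against 2 UMIs) were the 2 of 7 members tested that were at least 2-fold higher, none was lower, and 4.95% and 4.76% of all genes were higher and lower. Of 29 list genes, 1 was higher and 2 lower (median log2 ratio 0.10, all genes -0.03). Library and subcluster cannot be told apart here. T cell receptor complex transcripts (Cd3d, Cd3e, Cd3g, Trac and Trbc2) summed to 338 CPM in the Spp1-led subcluster as a whole.

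The balance of Ctla4 and Cd28 differed between subclusters. It is given as the share of Ctla4 in the UMIs of both genes, which can be compared between groups of cells but not read as a ratio of the proteins. The share was 86.7% (77.5 to 93.2, exact binomial) in gamma-delta T-like cells and 62.7% (60.8 to 64.5) in regulatory T-like cells. It was 59.3% (58.1 to 60.5) in the cycling CD8 T-like cells, which also held Foxp3 and Cd4 RNA. It was 48.3% (46.3 to 50.3) in the Ifng-led and 41.4% (38.7 to 44.2) in the Ly6c2-led CD8 T-like cells. At the low end stood an unnamed Hbb-bt-led subcluster at 22.1% (18.3 to 26.2) and the Spp1-led NK-like cells at 10.8% (6.01 to 17.4). The gamma-delta T-like subcluster, 55 cells with Cd163l1 and Trdc, reached its share through little Cd28 (37.3 CPM, 18.6 to 66.7) and had 244 CPM of Ctla4 and 803 CPM (704 to 912) of Icos. Its 31 cells of library 4 stood at 1058 CPM for Icos and 413 CPM for Ctla4.

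The Hbb-bt-led subcluster (148 cells, 89 of library 1 and 55 of library 3) held T cell receptor complex transcripts at 4387 CPM, near the 4220.0 CPM of the Ifng-led CD8 T-like cells. Its leading genes were haemoglobin and cardiomyocyte genes, with the 4 haemoglobin genes summing to 7851 CPM, and it therefore stayed unnamed. It held Cd28 at 428 CPM (384 to 476), Icos at 283 CPM, Ctla4 at 121 CPM, Cd40lg at 51.5 CPM (37.1 to 69.7) and Tnfrsf9 at 17.2 CPM. Libraries 1 and 3 also gave like values of Ctla4, at 125 and 122 CPM, Icos, at 275 and 316 CPM, and Tnfrsf9, at 15.4 and 21.5 CPM. The part of the free haemoglobin RNA in these values was not tested.

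**Figure D3:**
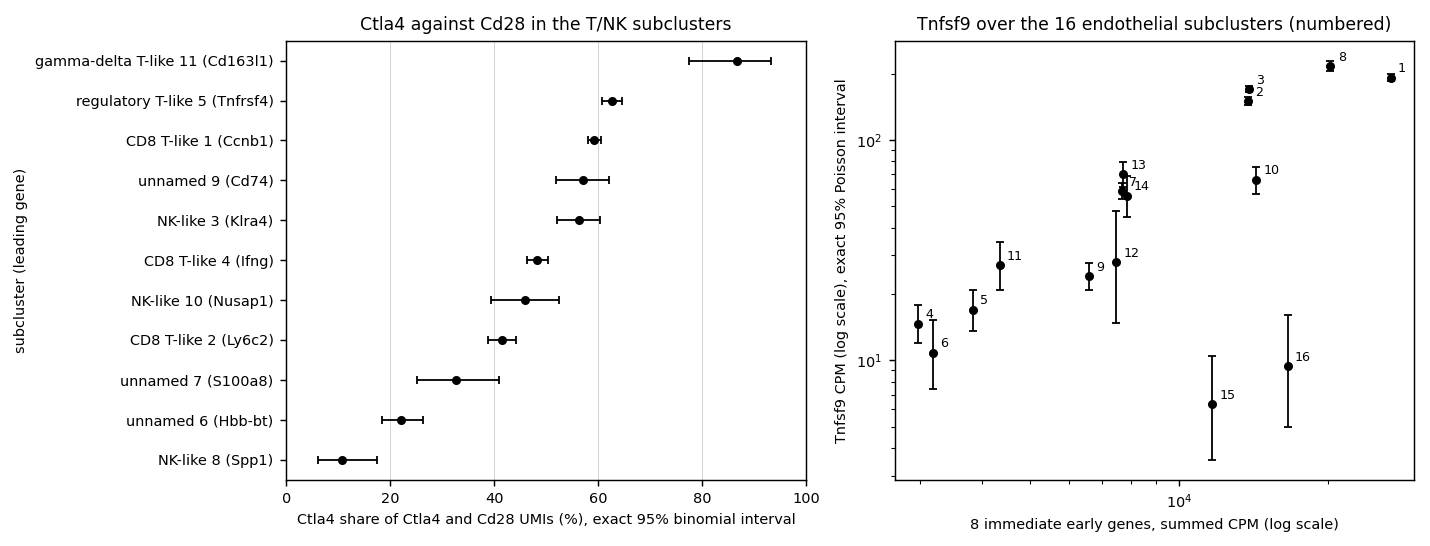
Left, the share of Ctla4 in the summed UMIs of Ctla4 and Cd28 for the 11 T and NK subclusters, in percent with the 95% exact binomial interval, from 10.8% in the Spp1-led NK-like to 86.7% in the gamma-delta T-like cells. Right, Tnfsf9 CPM against the summed CPM of 8 immediate early genes in the 16 endothelial subclusters, where the 4 subclusters at 100 CPM of Tnfsf9 or more lie at 13740 CPM of immediate early genes or above.

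Among myeloid cells, mature dendritic-like cells, named by Ccr7, Fscn1 and Ccl22 (76 cells, 60 of library 4), held the highest Cd80, Cd86, Icosl and Tnfrsf9 of the 13 named subclusters. Cd80 was at 41.0 CPM (28.6 to 57.0), Cd86 at 418 CPM (376 to 464), Icosl at 70.3 CPM (53.6 to 90.5) and Cd40 at 226 CPM (195 to 260). Mature dendritic cells are known to carry antigen to lymph nodes and to prime T cells there. Against all other myeloid cells (9792 cells), Cd80 was 7.24 times (5.00 to 10.2), Icosl 6.77 times (5.14 to 8.77), Cd86 1.98 times (1.78 to 2.19), Tnfsf9 1.57 times and Cd40 1.45 times as high. Of 9 members tested, 4 were at least 2-fold higher (Cd80, Icosl, Tnfrsf9 and, on 6 UMIs, Icos) and 1 lower (Ctla4, 2 UMIs), beside 15.5% and 36.5% of all genes. Tnfrsf9, known mainly as a receptor of T and NK cells, was at 141 CPM (117 to 168) against 7.64 CPM, 18.4 times as high (15.1 to 22.2). Of 40 list genes, 16 were higher and 11 lower (median log2 ratio 0.81, all genes -0.07). Cd70, the ligand of CD27, was at 16.4 against 0.0681 CPM, Relb, a subunit of noncanonical NF-kappaB, at 739 against 78.0 CPM, and Vsir at 29.3 against 170 CPM.

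The same held within library 4 against dendritic-like cells of mixed type (60 against 202 cells). Cd80 was at 41.9 against 11.4 CPM (3.66 times, 2.10 to 6.33), Icosl at 71.3 against 18.8 CPM (3.79 times, 2.49 to 5.76) and Tnfsf9 at 82.2 against 31.0 CPM (2.65 times, 1.84 to 3.78). Cd86, at 439 against 351 CPM, was 1.25 times as high (1.09 to 1.43), and Cd40, at 248 against 209 CPM, was not apart (1.19 times, 0.990 to 1.42). Tnfrsf9 was at 144 against 7.75 CPM (18.6 times, 11.5 to 31.5). Of 7 members tested, 4 were higher and Ctla4 (2 against 34 UMIs) lower, where 11.2% and 21.2% of all genes were. Of 28 list genes, 12 were higher and 6 lower (median log2 ratio 0.86, all genes -0.18). Tnfrsf4 stood at 403 against 7.38 CPM, Traf1, an adaptor of TNF receptors, at 1245 against 306 CPM, Relb at 737 against 128 CPM and Map3k14, the noncanonical NF-kappaB kinase, at 287 against 68.3 CPM.

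**Figure D4:**
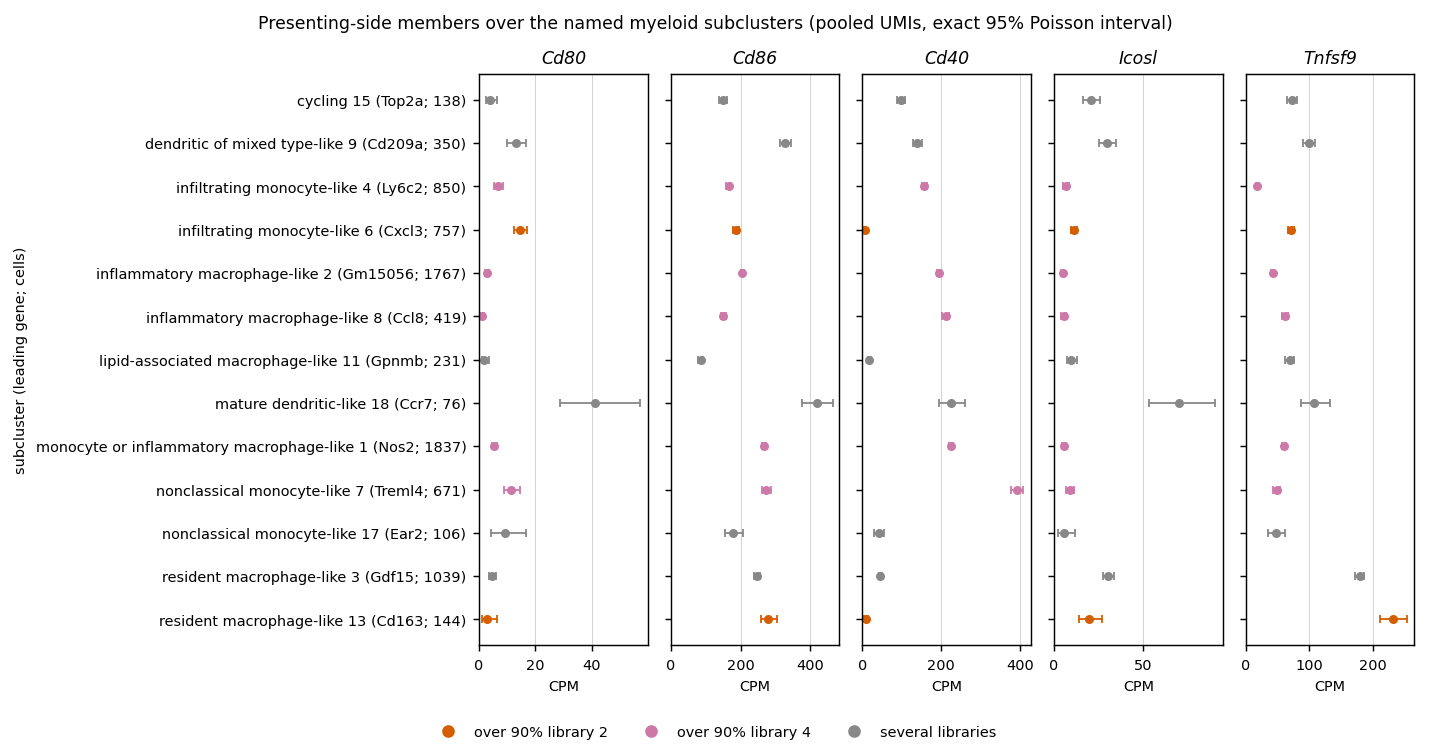
Level of the 5 presenting-side genes in the 13 named myeloid subclusters, as CPM with the 95% exact Poisson interval, coloured by the library that gave over 90% of the cells. Cd80, Cd86 and Icosl are highest in the mature dendritic-like subcluster (41.0, 418 and 70.3 CPM), Cd40 in the Treml4-led nonclassical monocyte-like one (393 CPM) and Tnfsf9 in a resident macrophage-like one (232 CPM).

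Infiltrating monocyte-like and inflammatory macrophage-like subclusters (5630 cells) were set against resident macrophage-like subclusters (1183 cells). Library 4 gave 1837, 1766, 850 and 417 cells of 4 of the infiltrating or inflammatory subclusters and library 2 gave 731 of the fifth, while library 4 gave 0 of the resident cells. Apart from the 141 resident cells of library 2, no library gave many cells to both sides, so library and cell group largely cannot be told apart for any gene here. Cd40 was at 174 against 40.7 CPM, 4.28 times as high (3.95 to 4.66), but this rested on library 4. Without library 4 the log2 ratio turned from 2.10 to -2.41. The infiltrating cells then left were mostly of library 2, with Cd40 at 5.13 CPM (63 UMIs in 731 cells). The Cd163-led resident subcluster, with 141 of its 144 cells from library 2, also held few Cd40 UMIs (18). Most other resident cells were of libraries 1 and 3, and the part of the library in this turn was not tested. Cd86 was lower in the infiltrating cells, at 209 against 251 CPM (0.830 times, 0.801 to 0.860), as were Icosl, at 6.20 against 28.9 CPM (0.215 times), and Tnfsf9, at 50.7 against 187 CPM (0.271 times). Cd80, at 5.45 against 4.41 CPM, was not apart over the pooled cells (1.24 times, 0.951 to 1.63). That does not hold for each library. The infiltrating monocyte-like cells of library 2 held Cd80 at 14.7 CPM (181 UMIs in 731 cells). The Cd163-led resident subcluster, almost all of library 2, held 6 Cd80 UMIs in 144 cells. Of 9 members tested, 4 were at least 2-fold higher (Cd40, Ctla4, Icos and Tnfrsf9) and 3 lower (Icosl, Tnfsf9 and Cd28), beside 8.9% and 23.5% of all genes. T cell receptor complex transcripts summed to 47.5, 38.3, 44.6 and 30.9 CPM in the 4 subclusters of library 4, to 1.34 CPM in that of library 2 and to 3.04 and 0.985 CPM in the resident ones. Their part in the values of Ctla4, Icos and Tnfrsf9 was not tested. Of 37 list genes, 15 were higher and 4 lower (median log2 ratio 0.69, all genes -0.23). The PD-1 ligands were among the higher, with Cd274 at 423 against 21.6 CPM and Pdcd1lg2 at 39.4 against 0.689 CPM, and Cd276 (1.57 against 15.5 CPM) and Cd48 (117 against 238 CPM) among the lower.

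Infiltrating monocyte-like cells of libraries 2 and 4 fell almost wholly in different subclusters and differed in Cd40. Library and subcluster cannot be told apart here for any gene. Library 2 (731 cells, led by Cxcl3) held it at 5.13 CPM and library 4 (851 cells, led by Ly6c2) at 158 CPM, a ratio of 0.0325 (0.0249 to 0.0418). Cd80 went the other way, at 14.7 against 6.83 CPM (2.16 times, 1.65 to 2.85), as did Tnfsf9, at 62.5 against 18.7 CPM (3.34 times), and Tnfrsf9, at 25.1 against 5.43 CPM (4.62 times). Cd86 was at 188 against 165 CPM (1.14 times) and Icosl at 10.9 against 6.65 CPM (1.64 times), both under 2-fold. Of 9 members, 3 were at least 2-fold higher in library 2 and 4 lower, where 14.8% and 13.8% of all genes were. The lower ones besides Cd40 were Ctla4, with 0 against 87 UMIs, Icos, with 0 against 29, and Cd28, with 7 against 25. T cell receptor complex transcripts summed to 1.34 CPM in the Cxcl3-led and 44.6 CPM in the Ly6c2-led subcluster, and their part in these 3 values was not tested. Of 31 list genes, 0 were higher and 13 lower (median log2 ratio -0.56, all genes -0.02), with Cd274 at 122 against 397 CPM and Pik3cd at 22.7 against 119 CPM. Granulocyte genes also differed, their 3 markers summing to 5576 CPM in the Cxcl3-led and 513 CPM in the Ly6c2-led subcluster, and their part in these values was not tested.

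Nonclassical monocyte-like cells of library 4 (671 cells, led by Treml4) held more Cd40 than the infiltrating monocyte-like cells of the same library (851 cells), at 393 against 158 CPM (2.49 times, 2.35 to 2.65). Tnfsf9 was at 49.0 against 18.7 CPM (2.61 times), Cd86 at 274 against 165 CPM (1.66 times) and Cd80 at 11.5 against 6.83 CPM (1.68 times). Cd40 and Tnfsf9 were the 2 of 9 members at least 2-fold higher, none was lower, and 4.02% and 3.57% of all genes were higher and lower. Of 35 list genes, 3 were higher and 2 lower (median log2 ratio 0.29, all genes -0.06), and Traf1 was at 429 against 100.4 CPM. The Ear2-led nonclassical monocyte-like cells, 69 of library 1 and 33 of library 3 among 106, held Cd40 at only 41.9 CPM (30.7 to 56.0), with 40.2 and 46.0 CPM in those libraries.

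Resident macrophage-like cells led by Gdf15 (1039 cells) could be read in libraries 1 and 3, which gave like levels of each presenting-side gene. Cd86 was at 257 and 243 CPM, Cd40 at 40.2 and 47.8 CPM, Icosl at 27.9 and 30.7 CPM, Tnfsf9 at 176 and 178 CPM and Cd80 at 6.00 and 3.95 CPM. The dendritic-like cells of mixed type, led by Cd209a, had cells of all 4 libraries. Their Cd40 was at 54.7, 60.2, 44.3 and 209 CPM in libraries 1 to 4, their Cd86 at 287, 261, 326 and 351 CPM and their Tnfsf9 at 239, 120, 146 and 31.0 CPM. Cd40 stood apart in library 4 and Tnfsf9 was lowest there, while Cd86 moved little. Cycling myeloid cells repeated it for Cd40, at 20.01, 24.8 and 159 CPM in libraries 1, 3 and 4.

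Over whole classes, Cd40 was highest in library 4 in macrophages/monocytes, dendritic cells, endothelial cells, pericytes and fibroblasts. In macrophages/monocytes it was at 33.3, 5.81, 38.6 and 214 CPM in libraries 1 to 4, in dendritic cells at 60.5, 60.5, 61.9 and 216 CPM and in endothelial cells at 20.2, 18.2, 24.2 and 71.4 CPM. In pericytes it was at 11.4, 6.12, 13.5 and 100.4 CPM and in fibroblasts at 6.30, 10.0 and 40.7 CPM in libraries 1, 3 and 4. The same was true of granulocytes (0, 1.92, 6.21 and 46.1 CPM). In granulocytes of library 4, Cd40 gave 2.09 UMIs per 100 Lyz2 UMIs, against 2.44 in macrophages/monocytes. The part of macrophage RNA in the granulocyte value was not tested. The B cells, at 40.2, 33.9, 23.1 and 57.7 CPM, had the smallest spread of these classes. Cd86 in macrophages/monocytes was nearly level, at 196, 200.3, 192 and 215 CPM, and in dendritic cells at 293, 283, 323 and 368 CPM.

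Tnfsf9 ran in the opposite direction in most of these classes. It was at 139, 87.6, 144 and 47.2 CPM in macrophages/monocytes, at 129, 94.1, 126 and 23.3 CPM in endothelial cells and at 153, 98.1, 176 and 28.7 CPM in pericytes, so that library 4 was lowest in each. In dendritic cells it was at 245, 115, 139 and 40.9 CPM and in fibroblasts at 62.3, 25.1 and 10.4 CPM in libraries 1, 3 and 4. Granulocytes were an exception, at 102, 15.4, 190 and 24.3 CPM, with library 2 lowest. T/NK-like cells, not among the classes above, were lowest in library 1 (2.41 CPM) and highest in library 4 (11.4 CPM). Icosl was lowest in library 4 in macrophages/monocytes (22.7, 12.4, 24.4 and 5.78 CPM) and dendritic cells (51.6, 57.3, 34.9 and 28.9 CPM). No label ties a library to a graft, and the spread between grafts of 1 kind is not known.

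**Figure D5:**
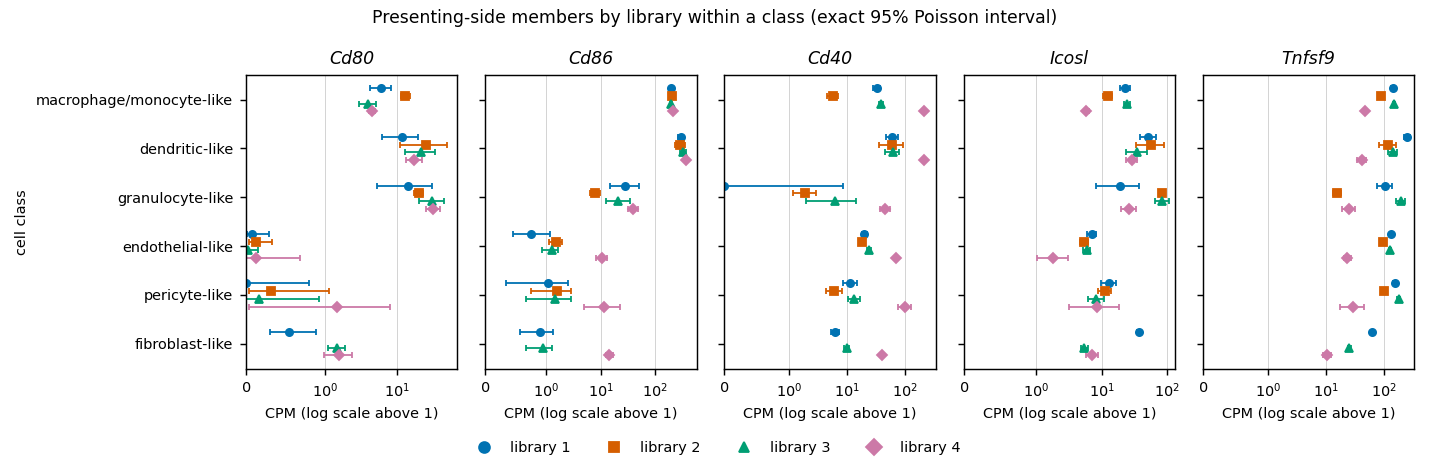
Level of the 5 presenting-side genes in libraries 1 to 4 within 6 cell classes, as CPM with the 95% exact Poisson interval, on a log scale above 1 CPM. In macrophages/monocytes Cd40 runs from 5.81 CPM in library 2 to 214 CPM in library 4 and Tnfsf9 from 144 CPM in library 3 to 47.2 CPM in library 4, while Cd86 stays between 192 and 215 CPM.

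Pooled over the libraries, granulocytes held more Cd80 and Icosl than macrophages/monocytes and less Cd86, Cd40 and Tnfsf9. Library 2 gave 2703 of the granulocytes and library 4 gave 5621 of the macrophages/monocytes, so library and class are partly mixed in these ratios. Within library 3, Tnfsf9 was higher in granulocytes (190 against 144 CPM), and within library 1 Icosl was lower in them. With 3830 against 7959 cells, Icosl was 7.60 times (6.99 to 8.26) and Cd80 4.07 times (3.56 to 4.65) as high. Cd86, at 14.1 against 209 CPM (0.0673 times), Cd40, at 8.98 against 159 CPM (0.0563 times), Tnfsf9, at 28.6 against 68.2 CPM (0.420 times), and Tnfrsf9 were at least 2-fold lower. The 2 higher and 4 lower of 9 members stand beside 16.7% and 41.9% of all genes, and the list had 4 higher and 11 lower of 38 genes (median log2 ratio -0.26, all genes -0.65). Cd80 in granulocytes was at 14.2, 19.98, 31.1 and 32.0 CPM in libraries 1 to 4, and Icosl at 18.9, 84.2, 83.2 and 26.0 CPM. The Retnlg-led cluster (2326 cells, library 2) held Icosl at 87.2 CPM (81.7 to 92.9). The Trim30c-led cluster (772 cells, library 4) held 25.7 CPM of Icosl, 42.7 CPM of Cd86 and 43.9 CPM of Cd40. The 5 macrophage markers summed to 3061 CPM in it, 2188 CPM in the Ngp-led and 433 CPM in the Retnlg-led cluster. In granulocytes of library 4, Cd86 gave 1.80 UMIs per 100 Lyz2 UMIs, against 2.45 in macrophages/monocytes. The part of macrophage RNA in these values was not tested.

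The share of Cd80 in the UMIs of Cd80 and Cd86 differed accordingly. It was 74.4% (69.0 to 79.3) in the Retnlg-led granulocyte cluster, 54.1% in the Ngp-led and 42.8% in the Trim30c-led one. In mature dendritic-like cells it was 8.93% (6.30 to 12.2), in the Cxcl3-led infiltrating monocyte-like cells 7.24%, and in the Ccl8-led inflammatory macrophage-like cells 0.635% (0.305 to 1.16). B cells, which held 0 Cd80 UMIs, had a share of 0 with an upper bound of 1.36%.

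Endothelial cells, the graft's first surface to recipient blood, held Cd40 and Tnfsf9 but almost no Cd86. The Cxcl9-rich endothelial-like cells of library 4 (605 cells) were set against the other endothelial-like cells of libraries 1 to 3 (11584 cells). Cd40 was at 73.7 against 21.1 CPM (3.49 times, 3.17 to 3.83), Tnfsf9 at 24.1 against 116 CPM (0.208 times) and Icosl at 1.90 against 6.03 CPM (0.314 times). Cd86 was at 10.7 against 1.22 CPM (8.83 times), Tnfrsf9 at 21.2 against 1.10 CPM (19.3 times, 15.03 to 24.9) and Ctla4 at 5.31 against 0.116 CPM (45.6 times). Of 8 members tested, 6 were at least 2-fold higher and 2 (Tnfsf9 and Icosl) lower, beside 7.35% and 23.7% of all genes. The 6 were Cd40, Cd86, Tnfrsf9, Ctla4, Cd28 (25 against 13 UMIs) and Icos (19 against 53 UMIs). The count therefore includes genes of T cells. Of 35 list genes, 16 were higher and 0 lower (median log2 ratio 0.85, all genes -0.25), with Cd274 at 761 against 64.6 CPM, Tnfrsf14 at 6.44 against 0.434 CPM and Traf1 at 55.9 against 9.93 CPM. Library and subcluster cannot be told apart.

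Transcripts of other cell types moved with some of these values. The 5 macrophage markers summed to 698 CPM in the Cxcl9-rich cells and to 92.4 CPM in the Ifit1-led endothelial-like cells. In library 4, Cd86 gave 2.35 UMIs per 100 UMIs of the macrophage gene Lyz2 in the Cxcl9-rich cells and 2.45 in macrophages/monocytes, a like ratio. Cd40 gave 16.1 per 100 Lyz2 UMIs in the Cxcl9-rich cells and 2.44 in macrophages/monocytes. Set against the 5 T cell receptor complex genes in the same way, Ctla4 gave 11.02 UMIs per 100 in the Cxcl9-rich cells and 9.04 in T/NK-like cells. Cd28 gave 6.56 and Icos 4.99 in the Cxcl9-rich cells, against 7.08 and 7.50 in T/NK-like cells. Tnfrsf9 gave 44.1 per 100 in the Cxcl9-rich cells, 282 in mature dendritic-like cells, 268 in pericytes and 9.85 in T/NK-like cells. In macrophages/monocytes of library 4 the figures were 14.8 for Ctla4, 15.04 for Tnfrsf9, 7.14 for Icos and 5.14 for Cd28, against 9.04, 9.85, 7.50 and 7.08 in T/NK-like cells. The part of RNA from T cells and macrophages in these values was not tested.

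Tnfrsf9 outside lymphocytes was seen in several classes. In pericytes it was at 0.859, 12.6, 1.98 and 119 CPM in libraries 1 to 4, the last from 42 cells, and in smooth muscle cells at 2.74, 23.6 and 20.5 CPM in libraries 1 to 3. In fibroblasts of libraries 1, 3 and 4 it was at 0.215, 0.284 and 13.7 CPM. In macrophages/monocytes it was at 0.827, 21.4, 0.472 and 6.35 CPM, highest in library 2. That library held 5 named T/NK-like cells and 144 cells of an unnamed S100a8-led T/NK subcluster, whose T cell receptor complex transcripts summed to 2719.7 CPM and which gave 0 Tnfrsf9 UMIs there. The Cxcl3-led infiltrating monocyte-like cells of that library held it at 24.7 CPM.

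Tnfsf9 separated endothelial subclusters of the same library more than any other member did in these comparisons, which were chosen after the levels had been seen. In library 1, the Ifit1-led type I interferon endothelial-like subcluster (1752 cells) held it at 187 CPM and the Dbp-led one (780 cells) at 8.58 CPM, 21.8 times as high (14.5 to 34.5). Cd40 was at 23.4 against 17.2 CPM (1.36 times). Of 3 members tested, 1 was higher and 0 lower, beside 5.12% and 7.05% of all genes, and of 23 list genes 3 were higher and 1 lower (median log2 ratio -0.07, all genes -0.28). In library 3, the Il6-led subcluster (1430 cells) held Tnfsf9 at 174 CPM and the Rasa4-led one (1050 cells) at 15.7 CPM, 11.1 times as high (9.06 to 13.7). Of 6 members tested, 1 was higher and 0 lower, beside 4.19% and 5.36% of all genes, and of 24 list genes 4 were higher and 2 lower (median log2 ratio -0.05, all genes -0.25).

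Immediate early genes, whose RNA rises within minutes of a stimulus or of tissue dissociation, moved with Tnfsf9 in these cells. The 4 endothelial subclusters with Tnfsf9 at 100 CPM or above held 13740 to 26709 CPM of 8 immediate early genes summed. The other 12 held 2982 to 16536 CPM, with Tnfsf9 from 6.33 to 70.0 CPM. Over the 16 subclusters r was 0.586 on the log2 scale, as a description. The ranges overlap. The lymphatic and the H19-led venous and endocardial subclusters held 11664 and 16536 CPM of immediate early genes and 6.33 and 9.39 CPM of Tnfsf9. An unnamed Hbb-bt-led one (599 cells) held 14289 CPM of immediate early genes and 65.8 CPM of Tnfsf9. The part of dissociation in the Tnfsf9 levels was not tested.

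Icosl had its own places outside the myeloid cells. The H19-led venous and endocardial endothelial-like subcluster (137 cells) held it at 37.6 CPM (28.0 to 49.2), where the whole endothelial class stood at 5.69 CPM. Among fibroblasts of libraries 1 and 3, the Clec3b-led cluster (1762 cells) held Icosl at 49.4 CPM and the Cilp-led one (2350 cells) at 5.21 CPM, 9.49 times as high (8.23 to 10.97). Tnfsf9 was at 83.8 against 21.3 CPM (3.93 times, 3.63 to 4.26), given over both libraries and not within each. Over the whole fibroblast class it was at 62.3 CPM in library 1 and 25.1 CPM in library 3. The 8 immediate early genes summed to 20677 CPM in the whole Clec3b-led cluster and 9142 CPM in the whole Cilp-led one. The part of library and of dissociation in the Tnfsf9 ratio was not tested. Icosl, Tnfsf9 and Icos (19 against 16 UMIs) were the 3 of 7 members at least 2-fold higher and Cd80 (8 against 60 UMIs) was lower, beside 5.91% and 10.6% of all genes. Of 30 list genes, 3 were higher and 6 lower (median log2 ratio 0.05, all genes -0.03). The Clec3b-led cluster had 1543 cells of library 1 and 219 of library 3, the Cilp-led one 579 and 1771. Icosl was at 53.1 CPM in library 1 and 24.7 CPM in library 3 in the Clec3b-led cells, and at 9.45 and 4.06 CPM in the Cilp-led ones, so it was higher in the Clec3b-led cells within each library. This pair of clusters was also chosen after the levels had been seen. The Timp1-led fibroblast cluster of library 4 (578 cells) held Cd40 at 40.0 CPM, Cd86 at 14.2 CPM and Tnfrsf9 at 13.5 CPM.

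T/NK-like cells were the highest class of 14 of the 42 other costimulation genes, and 12 of these were at least 2-fold above the second class. Dendritic cells were highest for 13, of which 5 were at least 2-fold above the second class, granulocytes for 5, B cells for 4, and macrophages/monocytes and fibroblasts for 2 each. Endothelial cells and pericytes were highest for 1 each. How many of all genes were highest in each class is not given, so these counts are descriptions of the list.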

How the data were processed

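Cells of 4 heart grafts were profiled with a 10x Genomics 3' kit. The authors deposited 1 merged table of UMI counts per gene and cell, not normalized, made with Cell Ranger 3.0.0 on mm10 with Ensembl 92, per the study's methods and the submitters' processing notes, which also name CASAVA 1.8. Whether antisense reads were counted is not given in the sources used here. The depth was 96020294 to 166079145 UMIs per barcode suffix.

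The authors' cell annotation was not used here. Cells with over 200 genes and under 20% mitochondrial counts were kept (44626), the 13 mitochondrial genes were removed, and the 5% of cells most like simulated doublets were left out. Each cell was scaled to 10000 counts, log values were taken and reduced to 10 principal components of 2000 variable genes without the members. Leiden clusters came from a shared-neighbour graph (30 neighbours, resolution 0.8) and those of T/NK, myeloid and endothelial cells were divided at resolution 1. Suffixes were not integrated. A cluster was named only with at least 3 markers detected above the other clusters. Where a rival class was ahead among its 10 leading genes, it is called unnamed, with 1 exception. If the classes were of 1 family, the subcluster took a shared name, monocyte or inflammatory macrophage, or dendritic of mixed type.

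Levels are pooled UMIs per 1000000 (CPM), with exact Poisson, Clopper-Pearson or conditional binomial intervals (95%). The limit of a count of 0 is 3 counts. Calls are 2-fold ratios among genes with at least 20 UMIs over both groups, with no test. Ratios and thinning to 1000 UMIs were tested on simulated data. Named genes were the members, the fixed list of 42 costimulation genes where at least 2-fold apart, and the 3 genes most like each member over log2(CPM + 1). The members and lists were chosen with earlier results of these data known, and which subclusters were set against each other was decided after clustering. Cd244a of the fixed list is Cd244 in the table. Alternatives were a minimum of 500 genes, doublets kept, other numbers of components and resolutions, thinning, equal weight of libraries and each library left out. Positions come from GENCODE M21 (GRCm38). Python 3.11.15, numpy 2.4.6, scipy 1.17.1, scikit-learn 1.9.0, igraph 0.11.9 and leidenalg 0.10.2 were used.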

Additional observations from a re-analysis of the deposited data

Results flagged for a closer look

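The 11429 cells left out by the limits on genes, mitochondrial share and doublets, which no comparison used, also held the members. The 5 T cell-side genes summed to 118 CPM there and the 5 presenting-side genes to 208 CPM, above the 0.0553 CPM that a count of 0 allows. Ctla4 stood at 29.8 CPM in these cells against 21.1 in the kept cells, Cd28 at 29.4 against 17.5, Icos at 26.2 against 17.8 and Tnfrsf9 at 32.0 against 25.7. Cd86 (71.4 against 70.5 CPM) and Tnfsf9 (65.8 against 65.9 CPM) were level, and Cd40 was at 51.1 against 60.2 CPM.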

How the results depend on the processing

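No paired analysis was possible because the matrix columns carry no map to the grafts. All 5 T cell-side genes stayed highest in T/NK-like cells under all 13 alternatives, and the 4 presenting-side genes in a myeloid or B class became 5 without library 4, with library 4 alone, with equal weight of libraries and after thinning. The highest class moved for Cd40 (to dendritic cells in 7 of 13), Tnfsf9 (4 of 12), Icosl (to B cells in 2 of 13) and Cd80 (to dendritic cells in 1 of 13). The log2 ratio of Cd40 in infiltrating or inflammatory over resident macrophage-like cells, 2.10, became 2.30 with 20 components, 2.26 with at least 500 genes, 2.23 with doublets kept, 2.25 at resolution 0.4, 1.67 with equal weight of libraries and 4.41 at subcluster resolution 0.5. With each library left out it ran from -2.41 (reversed, without library 4) to 2.61 (without library 3). That of Cd86, -0.27, became -0.38 with equal weight, -0.40 at subcluster resolution 0.5 and -0.12 after thinning, and ran from -0.42 to -0.22 with each library left out. That of Cd80 in mature dendritic-like cells, 2.86, ran from 2.57 to 3.18 under every alternative that gave a value, and from 2.82 to 3.15 with each library left out. That of Ctla4 in regulatory T-like cells, 1.94, became 2.17 with 20 components, 2.19 with the Foxp3 split, 1.84 at resolution 1.6, 3.0005 with equal weight, 2.33 after thinning and 1.79 in library 4 alone, a setting chosen after seeing the data, and ran from 1.87 to 1.91 with each library left out. That of Icos, 2.31, became 2.43 with 20 components, 1.61 with the Foxp3 split, 2.59 with equal weight and 2.19 after thinning, and ran from 2.29 to 2.30 with each library left out. No regulatory T-like value came from subcluster resolution 0.5, at which no subcluster took the name, or without library 4, which left 9 cells, and no mature dendritic-like value without library 4. The causes were not tested. Of the single levels of members, 82 were the same and 47 moved. Depth limits Cd40lg and Cd80 most, and 3971 kept cells held fewer than 1000 UMIs. With 1 pooled sample, the spread between grafts is unknown for every value.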
